A study of Mus musculus with 10 samples.

Results

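The genes described here are the vesicle release machinery, its SNARE proteins and its synaptotagmins, in ribosome-bound RNA from the dorsal and ventral mouse hippocampus. Members were protein-coding genes chosen by symbol: numbered synaptotagmins (Syt), syntaxins (Stx), syntaxin-binding proteins (Stxbp), VAMP, SNAP and complexin (Cplx) genes, Unc13a to Unc13d, the numbered Rims genes, the NSF attachment proteins Napa, Napb and Napg with Nsf, the synapsins Syn1 to Syn3 and the vesicle glycoproteins Sv2a to Sv2c. The rule found 74 of the 54838 gene rows that were counted, and coordinates below are those of GRCm38. By their known roles, 35 were classed as presynaptic exocytosis genes, 25 as general trafficking genes and 13 as neither alone, namely the 4 genes of SNARE disassembly and 9 further synaptotagmins, and 1 gene (Vamp9) was not classed. Snap91 was taken in by its symbol although it encodes AP180, a clathrin assembly protein of the synaptic vesicle and not a SNARE. After the filter on low counts, 67 members were among the 16806 genes tested. The other 7, Cplx4, Syt8, Stx11, Stx19, Unc13d, Vamp5 and Vamp9, had at most 23 counts in any library and were not tested. One of them, Vamp5, named after its values were seen, lay at 0 to 0.325 CPM in the dorsal and 0.352 to 1.28 CPM in the ventral libraries. The gap between these ranges is smaller than the 0.146 to 0.269 CPM that 3 counts correspond to, so no separation is read from it.

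All 10 libraries came from double transgenic male mice (Drd2-Cre;Eef1a1LSL.eGFPL10a/+, strain C57BL/6, about 10 weeks old) whose Cre-positive cells carry the EGFP-tagged ribosomal protein L10a. In translating ribosome affinity purification (TRAP), tagged ribosomes are pulled down with antibodies to EGFP and the RNA bound to them is sequenced. There were 5 Dorsal libraries, from the dorsal portion of the hippocampus, and 5 Ventral libraries, from the longer ventral portion, and for each the tissue of 5 mice was pooled. The paper describes each hippocampus as divided into both portions, so the Dorsal and Ventral libraries drew on the same set of mice. Which libraries share mice is not stated, and the main tests treated all libraries as unpaired. The Drd2-Cre line marks hilar mossy cells, the glutamatergic neurons of the dentate hilus, and also some GABAergic interneurons, and the ventral subiculum was trimmed away by hand, so the fractions are enriched for mossy cells rather than pure.

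Transmitter is released when a synaptic vesicle fuses with the presynaptic membrane. A SNARE protein on the vesicle (a VAMP) zips together with a syntaxin and a SNAP protein on the target membrane, Munc18 and Munc13 proteins (the latter from the Unc13 genes) prepare this assembly, complexins clamp and promote it, RIM proteins (Rims genes) tether vesicles near calcium channels, and synaptotagmins trigger fusion when they bind calcium. The NSF ATPase with its attachment proteins then takes the spent SNARE complexes apart, and relatives of the same proteins serve other membranes, such as endosomes, lysosomes and the Golgi. Mossy cells send long axons along the hippocampal axis onto granule cells and interneurons.

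The promoters of members that differed between the fractions are shown first, so that the start regions of these genes stand beside the levels given below. RefSeq promoter windows were listed for 15 of 21 such members (those called enriched, and both genes of the paralog pairs whose ratio differed), and the 6 whose listed start lay within 10 bases of the annotated gene start are given. Each is the 250 bases upstream of the start, read 5′ to 3′ on the gene's own strand, from RefSeq on GRCm38.p6, with capitals marking the GC box GGGCGG or its reverse complement CCGCCC. The windows are Stx1a at chr5:135023232-135023481 on the plus strand, Cplx1 at chr5:108550028-108550277 on the minus strand, Syn2 at chr6:115134652-115134901 on the plus strand, Nsf at chr11:103954057-103954306 on the minus strand, Cplx3 at chr9:57606282-57606531 on the minus strand and Sv2c at chr13:96132578-96132827 on the minus strand. The first 5 belong to genes higher in the ventral libraries and the last to a gene higher in the dorsal ones.
Stx1a: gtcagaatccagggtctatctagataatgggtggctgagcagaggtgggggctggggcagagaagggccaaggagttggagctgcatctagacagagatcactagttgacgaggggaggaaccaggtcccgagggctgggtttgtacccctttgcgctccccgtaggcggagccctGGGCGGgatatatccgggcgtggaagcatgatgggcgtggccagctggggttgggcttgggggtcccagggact
Cplx1: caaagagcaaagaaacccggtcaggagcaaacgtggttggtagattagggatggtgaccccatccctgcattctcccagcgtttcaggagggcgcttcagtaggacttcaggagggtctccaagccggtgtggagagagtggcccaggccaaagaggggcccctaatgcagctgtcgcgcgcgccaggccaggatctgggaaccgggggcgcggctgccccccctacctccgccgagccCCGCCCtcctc
Syn2: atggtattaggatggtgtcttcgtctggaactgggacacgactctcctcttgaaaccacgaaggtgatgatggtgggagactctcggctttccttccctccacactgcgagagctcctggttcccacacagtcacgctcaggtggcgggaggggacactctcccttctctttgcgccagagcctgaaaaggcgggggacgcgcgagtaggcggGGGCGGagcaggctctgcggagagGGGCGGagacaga
Nsf: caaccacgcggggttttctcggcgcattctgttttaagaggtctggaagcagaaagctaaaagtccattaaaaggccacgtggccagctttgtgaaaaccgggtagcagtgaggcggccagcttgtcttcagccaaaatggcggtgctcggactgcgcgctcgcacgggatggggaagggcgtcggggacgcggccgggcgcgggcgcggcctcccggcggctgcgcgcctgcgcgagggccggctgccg
Cplx3: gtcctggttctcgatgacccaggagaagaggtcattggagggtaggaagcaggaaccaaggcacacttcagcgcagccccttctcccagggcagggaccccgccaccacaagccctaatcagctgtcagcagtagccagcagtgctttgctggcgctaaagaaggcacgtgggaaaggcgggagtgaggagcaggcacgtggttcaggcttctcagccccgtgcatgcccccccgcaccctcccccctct
Sv2c: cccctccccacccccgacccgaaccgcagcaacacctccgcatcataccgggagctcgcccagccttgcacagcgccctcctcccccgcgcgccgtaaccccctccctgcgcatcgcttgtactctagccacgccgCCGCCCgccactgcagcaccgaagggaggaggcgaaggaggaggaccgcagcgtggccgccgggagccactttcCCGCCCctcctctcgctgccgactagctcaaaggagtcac
A GC box on either strand was found in 41 of the 71 windows listed for 56 of the 74 members (57.7%), and in 32.7% of all 32851 windows of that length. Syn2 and Sv2c held 2 each, Stx1a and Cplx1 held 1 each, and Nsf and Cplx3 held none, so that windows with and without the letters occurred among the genes higher in the ventral libraries. The match is a description of these windows.

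The libraries held 11138676 to 20594364 counts on genes, so that 3 counts, the limit a count of 0 allows, corresponded to 0.146 to 0.269 CPM (gene counts scaled to a common library total). The labelled cell type was compared with 6 mossy cell markers, which summed to 341 to 437 CPM in the dorsal and 1003 to 1245 CPM in the ventral libraries. Most of the gap in this sum lay in Calb2, so the sum does not measure the content of mossy cells. Calb2, which marks ventral mossy cells, was at 65.2 ± 9.32 against 616 ± 94.6 CPM (dorsal against ventral), Satb1 at 270.0 ± 28.8 against 450.2 ± 33.2 CPM, Drd2 at 28.1 ± 3.96 against 20.7 ± 4.36 CPM, Calcrl at 7.52 ± 7.89 against 8.25 ± 2.63 CPM and Nmb at 7.49 ± 2.14 against 10.2 ± 3.24 CPM. Csf2rb2 was near 0, and Gad2, an enzyme of GABA synthesis, reached 2853 ± 453 against 3174 ± 407 CPM, above every mossy cell marker. Summed interneuron markers overlapped between the groups (3665 to 4815 CPM dorsal, 4397 to 5801 CPM ventral, 3 of 10 called ventral-enriched). Sums also overlapped for granule cell markers (365 to 497 CPM dorsal, 359 to 502 CPM ventral) and for CA1 and CA3 pyramidal markers (197 to 285 CPM dorsal, 160 to 246 CPM ventral). Of these Prox1 and Bok were called dorsal-enriched and Calb1 ventral-enriched. Summed oligodendrocyte markers did not overlap (2345 to 2819 CPM dorsal, 839 to 1651 CPM ventral, 4 of 6 called dorsal-enriched). The share of read pairs assigned to no gene was 21.8% to 33.9% in the dorsal and 11.6% to 19.3% in the ventral libraries. The groups again did not overlap. Such pairs may lie between genes or in introns, which the counts cannot tell apart. Mitochondrial mRNA did not overlap either, at 2774 to 3524 CPM in the dorsal and 447 to 1257 CPM in the ventral libraries. The part of these differences in the results below was not tested, except by the fit with that share as a covariate.

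The comparison asked which parts of the release machinery differ between dorsal and ventral fractions. A member was called enriched where its edgeR adjusted p was under 0.05 and the 2 group means of CPM, each with 1 added, lay more than 0.58 apart on the log2 scale. By this rule 7 members were dorsal-enriched and 10 ventral-enriched, where the rule called 15.7% of all tested genes dorsal-enriched and 9.85% ventral-enriched (11.4% and 10.3% of tested protein-coding genes). The members' shares, 10.4% and 14.9%, were thus near those of protein-coding genes on the dorsal side and above them on the ventral side. The ventral-enriched members were the plasma membrane SNARE Stx1a, the complexin Cplx3, the Munc13 gene Unc13c, the RIM gene Rims3, the synaptotagmins Syt6 and Syt17, the synapsin Syn2, the ATPase Nsf, and the trafficking SNAREs Snap47 and Stx8. The dorsal-enriched ones were the synaptotagmins Syt7 and Syt12, the vesicle glycoprotein Sv2c, the synapsin Syn3, the Munc18 gene Stxbp2, and the SNAREs Vamp3 and Vamp8.

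Without a limit on the fold, 11 members were higher in the dorsal and 20 in the ventral libraries at an adjusted p below 0.05, against 19.0% and 14.6% of all tested genes, which is 16.4% and 29.9% of the members. The 5 dorsal libraries lay wholly above the 5 ventral ones for 5 members and wholly below them for 15, where 9.81% and 8.36% of tested genes showed such separation. The median log2 fold change (dorsal over ventral) was -0.10 over the 67 members and -0.0044 over all tested genes. All members together made up 25525 to 32011 CPM of the dorsal and 32200 to 38016 CPM of the ventral libraries, without overlap, and Snap25 alone supplied 12127 to 16218 and 16962 to 20457 CPM of this. The separation of the sums rested on Snap25. Dorsal replicate 1 had 32011 CPM, 16218 of it from Snap25, and Ventral replicate 3 had 32200 CPM, 16962 of it from Snap25. The remaining members thus summed higher in that dorsal library. Fewer labelled cells of a type and less RNA per cell cannot be told apart in such bulk fractions. With the share of pairs assigned to no gene as a covariate, 3 members stayed dorsal-enriched (Sv2c, Syt12 and Vamp8) and 1 ventral-enriched (Syt17). All tested genes fell to 833 and 339 calls. Since this share did not overlap between the groups, the fraction and the share cannot be told apart.

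**Figure D1:**
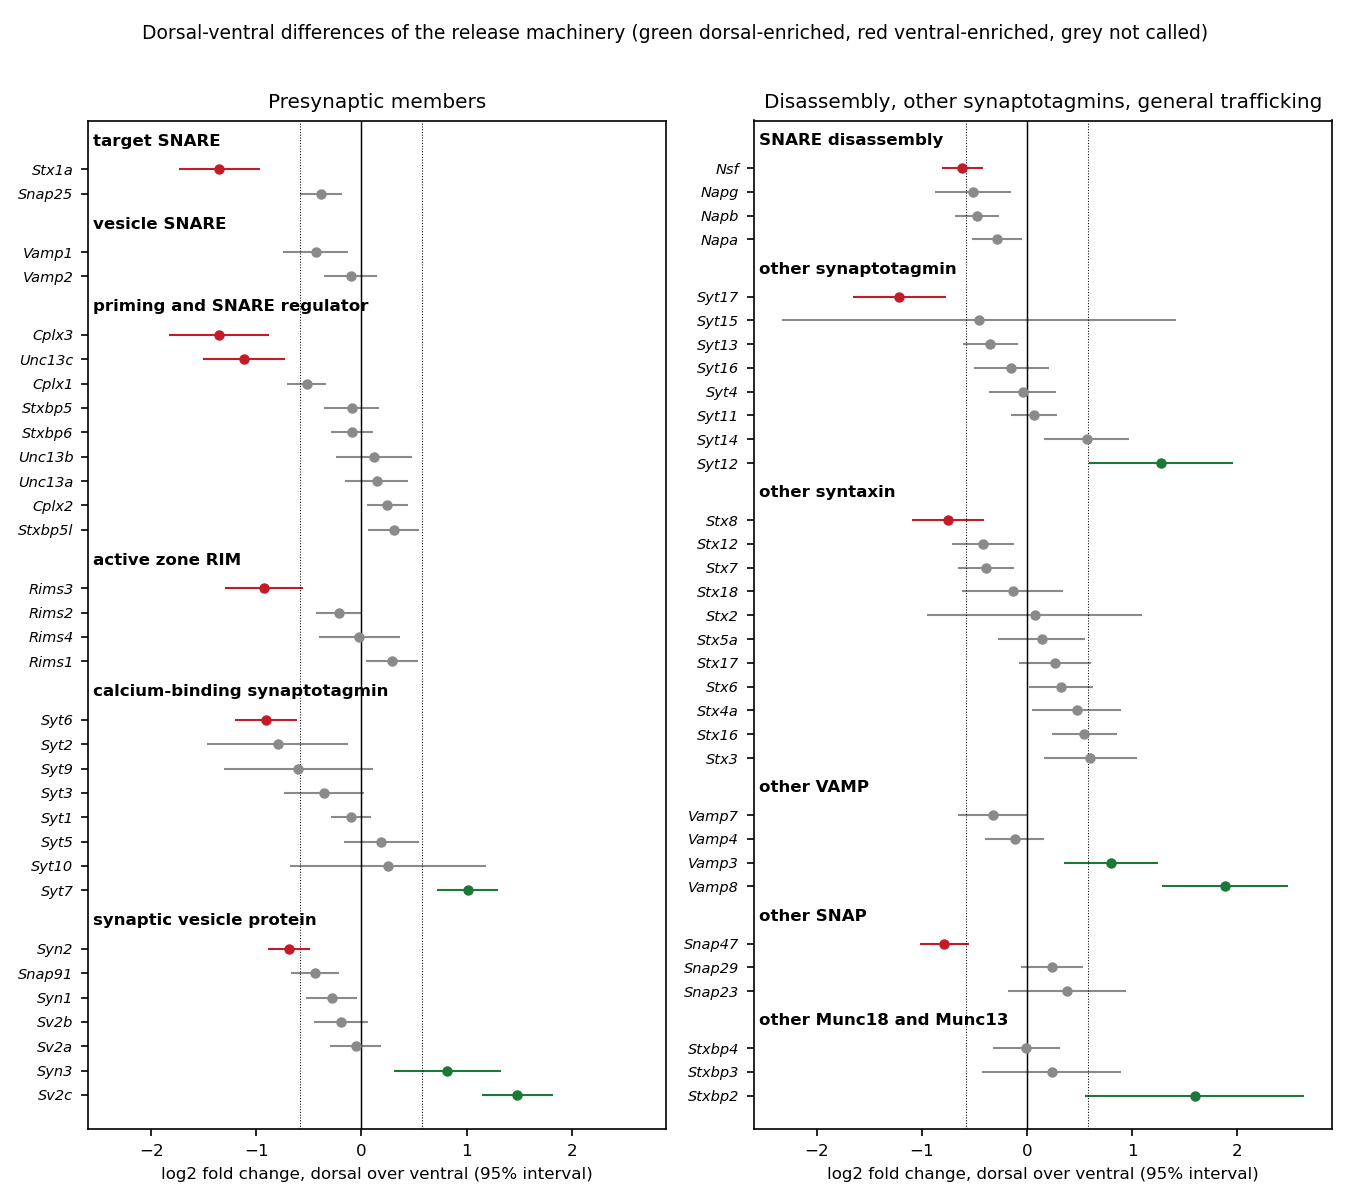
Log2 fold change (dorsal over ventral) with its 95% interval for 65 of the 67 tested members, ordered by role, with presynaptic genes on the left and SNARE disassembly, other synaptotagmins and general trafficking genes on the right. Dotted lines mark 0.58 on the log2 scale on either side of 0. Calls used group means with 1 CPM added, so Stx3, at 0.60, lies past a line without being called. The 7 green points are the dorsal-enriched and the 10 red points the ventral-enriched members.

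Presynaptic and general trafficking members had medians of opposite sign. Of 34 tested presynaptic members, 3 were called dorsal-enriched and 6 ventral-enriched, 24 had the higher mean in the ventral libraries, and the median log2 fold change was -0.17. Of 21 tested general trafficking members, 3 were called dorsal-enriched and 2 ventral-enriched, 13 had the higher mean in the dorsal libraries, and the median was 0.23. For the 12 tested genes of disassembly and the remaining synaptotagmins the counts were 1 and 2 and the median -0.32. The dorsal and ventral calls thus made up 8.82% and 17.6% of the presynaptic, 14.3% and 9.52% of the general trafficking and 8.33% and 16.7% of the remaining members, beside 15.7% and 9.85% of all tested genes and 11.4% and 10.3% of tested protein-coding genes. These are descriptions of the lists beside the median of -0.041 over tested protein-coding genes. After correction for GC content and exonic length, which lowered the median of all tested genes to -0.15, the medians were -0.34 for presynaptic and 0.030 for general trafficking members, and 6 members were dorsal-enriched and 18 ventral-enriched. Calls over all tested genes moved the same way, from 2636 dorsal and 1655 ventral to 2054 and 2757.

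The direction also went with the level. Of the 27 members with a mean of at least 100 CPM, a limit chosen after the values were seen, 22 had the higher mean in the ventral libraries, compared with 1231 of 2220 protein-coding genes at that level. Of the 40 tested members below it, 21 were higher in the dorsal and 19 in the ventral libraries. Among the abundant members 11 passed the adjusted p on the ventral and 3 on the dorsal side, yet 3 and 1 of them also passed the fold limit. Of the 2220 protein-coding genes at that level, 481 (21.7%) and 394 (17.7%) passed the adjusted p on the ventral and dorsal sides, and 154 (6.94%) and 148 (6.67%) also passed the fold limit. Of the 5 general trafficking genes at this level 4 were higher in the ventral libraries, so that the abundant members of that class did not share the direction of its median.

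**Figure D2:**
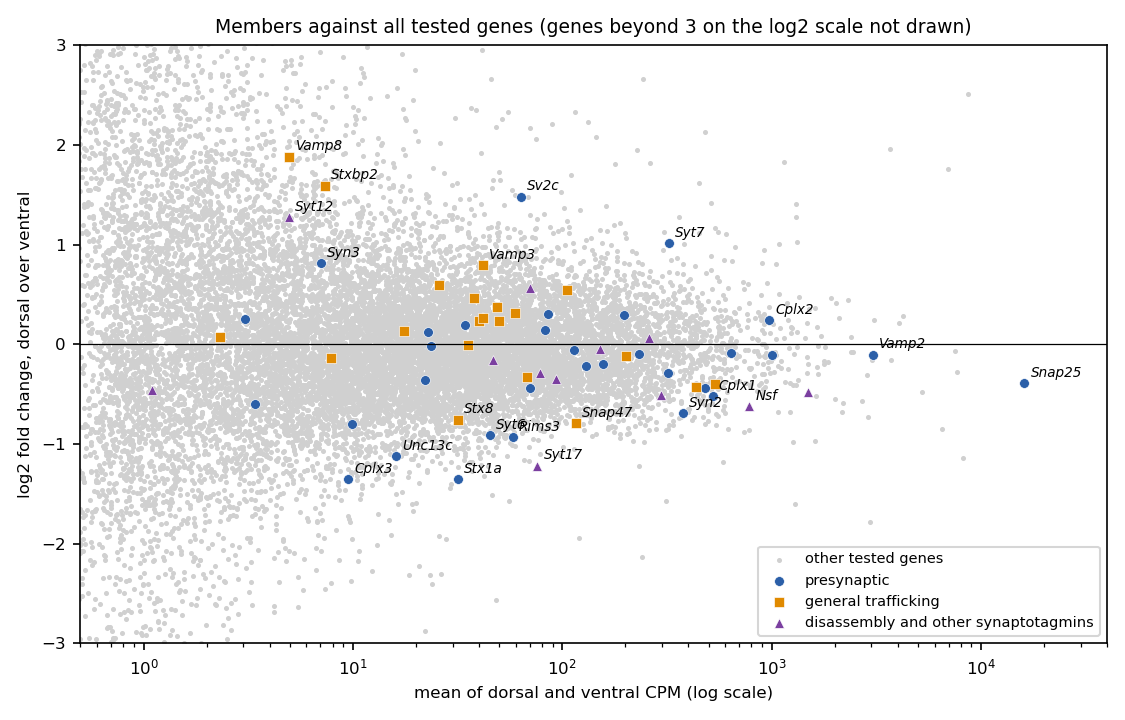
Mean CPM of the dorsal and ventral groups (log scale) against log2 fold change for all tested genes in grey and for 65 of the 67 tested members coloured by class. Most abundant presynaptic members on the right lie close to or below 0, such as Vamp2 at -0.10 and Snap25 at -0.39, with Cplx2 at 0.25 above it, whereas Sv2c and Syt7 stand above the other members of similar level.

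The target membrane SNAREs included the gene with the most counts in these libraries. Snap25 (chr2:136713453-136782428, plus strand), the SNAP protein of synaptic fusion, had the highest mean CPM of all tested genes and ranked 10 when CPM was divided by exonic length (2058 and 2688 CPM per kb in the dorsal and ventral means). Snap25 was measured at 16218, 12253, 12127, 15461 and 13804 CPM in Dorsal replicates 1 to 5 and at 18942, 20457, 16962, 16998 and 17895 CPM in Ventral replicates 1 to 5. The ventral libraries were all above the dorsal ones, although the difference was modest (13973 ± 1847 CPM against 18251 ± 1475 CPM, mean ± SD, n = 5 each, log2 fold change -0.39 ± 0.092, edgeR adjusted p = 0.0066) and below the fold limit. Stx1a (chr5:135023482-135051100, plus strand), the syntaxin first identified as the partner of synaptotagmin, showed a larger difference. It stood at 12.9, 17.3, 16.4, 24.2 and 18.1 CPM in the dorsal libraries and 49.4, 46.8, 31.2, 50.6 and 50.6 CPM in the ventral libraries. Ventral replicate 3 was the lowest of its group and still above every dorsal library. The log2 fold change was -1.35 ± 0.18 (17.8 ± 4.10 CPM against 45.7 ± 8.28 CPM, SD, n = 5 each, edgeR adjusted p = 0.000184).

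The vesicle SNAREs did not reach the fold limit. Vamp2 (synaptobrevin 2), the second most abundant member, varied widely among libraries. Vamp2 was measured at 3617, 2797, 2366, 3205 and 2719 CPM in Dorsal replicates 1 to 5 and at 3374, 3719, 2702, 2775 and 3206 CPM in Ventral replicates 1 to 5. The groups overlapped over most of their range, and the log2 fold change of -0.10 ± 0.12 had an interval of -0.36 to 0.15 (edgeR adjusted p = 0.537). Its sign turned after GC and length correction (0.044) and with the share of pairs assigned to no gene as a covariate (0.46). Vamp1, known from fast-spiking neurons and motor terminals, lay at 56.2, 73.2, 55.4, 58.9 and 54.8 CPM in the dorsal libraries and 62.6, 73.6, 101, 74.5 and 93.7 CPM in the ventral libraries. It was higher in the ventral libraries by the test though not by the fold limit (log2 fold change -0.44 ± 0.15, edgeR adjusted p = 0.0329), and Dorsal replicate 2 lay within the ventral range. When single libraries were left out its edgeR adjusted p ran from 0.0143 to 0.0943. The ratio of Vamp1 to Vamp2 overlapped between groups (-5.60 ± 0.29 against -5.28 ± 0.41 on the log2 scale, two-sided exact permutation test, p = 0.183, Benjamini-Hochberg adjusted p = 0.209 over the 8 paralog pairs tested, where 5 against 5 allows no raw p below 0.00794). Such a ratio within a library is free of the library's total.

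Among the priming factors and SNARE regulators, 10 were tested, 2 were called ventral-enriched and none dorsal-enriched, beside 9.85% and 15.7% of all tested genes. By adjusted p without the fold limit 4 were higher in the ventral and 1 in the dorsal libraries, beside 14.6% and 19.0%. Unc13a (Munc13-1), the main priming factor of glutamatergic terminals, stood at 78.0, 67.8, 94.0, 93.8 and 100.5 CPM in the dorsal libraries and 84.3, 58.7, 72.5, 84.8 and 89.7 CPM in the ventral libraries. Its groups overlapped, and the interval of the log2 fold change, -0.16 to 0.45, included 0 (edgeR adjusted p = 0.453). Unc13c (Munc13-3), best known from cerebellar granule cells, was much scarcer, and Unc13c (chr9:73479422-73968966, minus strand) differed clearly. Unc13c was measured at 8.66, 12.1, 11.0, 8.35 and 10.8 CPM in Dorsal replicates 1 to 5 and at 27.8, 17.8, 20.4, 21.1 and 22.4 CPM in Ventral replicates 1 to 5. The highest dorsal library was below the lowest ventral one, with a log2 fold change of -1.12 ± 0.18 (edgeR adjusted p = 0.000612). Unc13b did not pass the test (0.12 ± 0.17, edgeR adjusted p = 0.604).

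Cplx1 and Cplx2 differed in opposite directions. Cplx1 (chr5:108518554-108550024, minus strand) is the complexin of many inhibitory and brainstem neurons, and Cplx2 that of forebrain glutamatergic neurons. Cplx1 was measured at 426, 403, 441, 445 and 432 CPM in Dorsal replicates 1 to 5 and at 601, 675, 532, 621 and 651 CPM in Ventral replicates 1 to 5. Every ventral library was above every dorsal one, with a log2 fold change of -0.52 ± 0.086 that did not reach the fold limit (edgeR adjusted p = 0.000704). Cplx2 was at 963, 1068, 1099, 1086 and 1051 CPM in the dorsal libraries and 857, 985, 739, 902 and 954 CPM in the ventral libraries. It was slightly higher in the dorsal libraries (0.25 ± 0.090, edgeR adjusted p = 0.0461), with Ventral replicate 2 inside the dorsal range, and its adjusted p ran from 0.0304 to 0.0969 when single libraries were left out. Within each library the log2 ratio of Cplx1 to Cplx2 was -1.17, -1.40, -1.31, -1.28 and -1.28 in the dorsal and -0.51, -0.55, -0.47, -0.54 and -0.55 in the ventral libraries. These values left a wide gap between the groups (-1.29 ± 0.082 against -0.52 ± 0.032, difference -0.77, exact permutation p = 0.00794, Benjamini-Hochberg adjusted p = 0.0212). Leaving out each library in turn gave differences of -0.80 to -0.74, and correction for GC content and length gave -0.71. Cplx2 was the more abundant of the pair in counts, while per kb of exon Cplx1 stood at 196 and 281 CPM per kb and Cplx2 at 214 and 180.1 CPM per kb in the dorsal and ventral means, so that their order per length was reversed between the fractions.

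Cplx3, the complexin of retinal ribbon synapses and of a few cortical neurons, was scarce but separated. Cplx3 was measured at 4.23, 6.24, 4.43, 5.95 and 5.42 CPM in Dorsal replicates 1 to 5 and at 15.4, 17.8, 9.79, 13.0 and 12.4 CPM in Ventral replicates 1 to 5. Its log2 fold change of -1.35 ± 0.22 was the lowest of all tested members (edgeR adjusted p = 0.000701), next to that of Stx1a. The tomosyns Stxbp5 (-0.094 ± 0.12) and Stxbp5l (0.31 ± 0.11), which hold syntaxin away from fusion, and amisyn (Stxbp6, -0.090 ± 0.094) did not pass the test, with edgeR adjusted p values of 0.578, 0.0508 and 0.482.

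**Figure D3:**
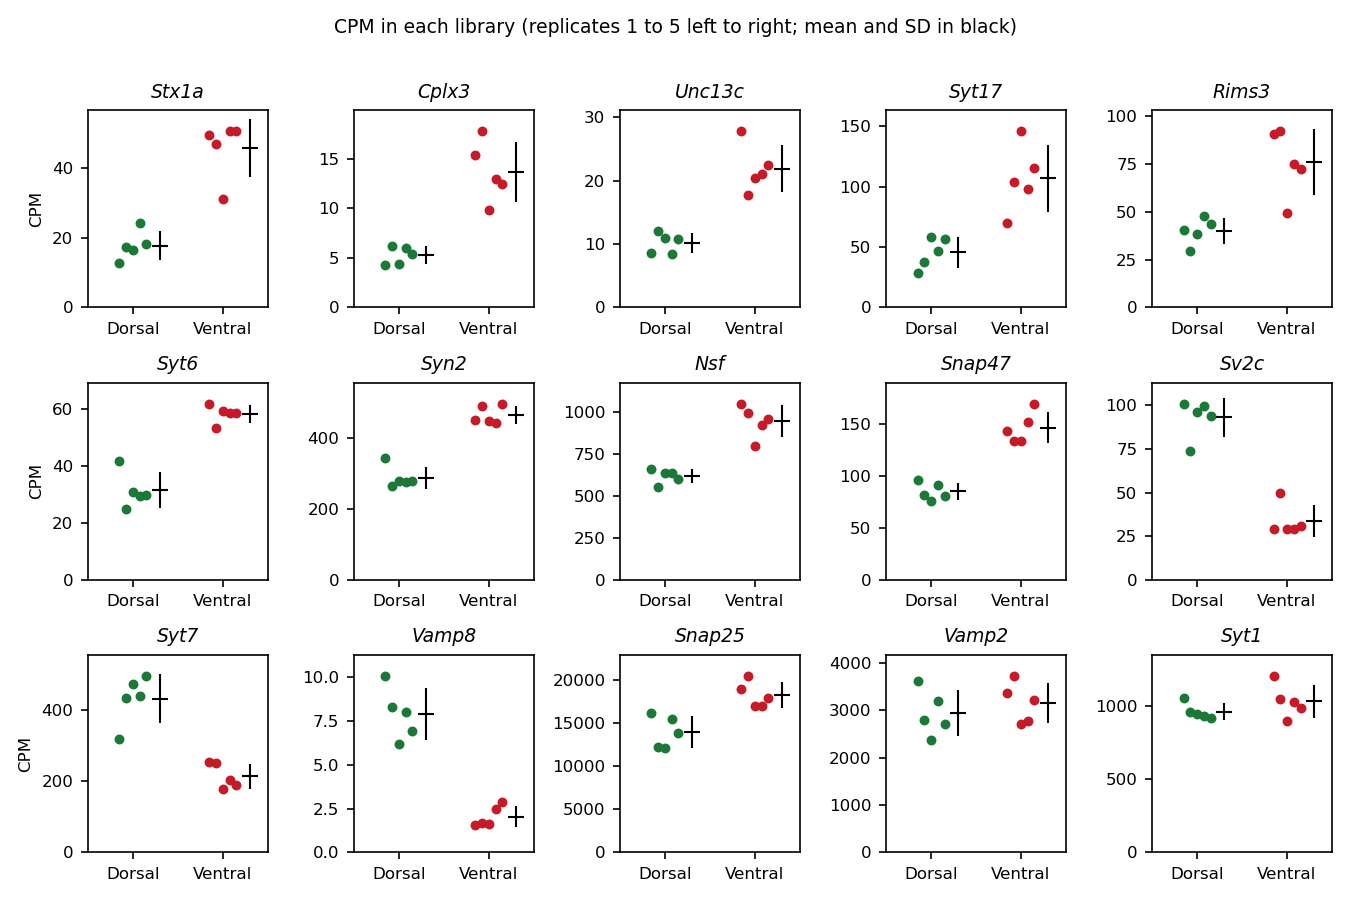
CPM of 15 members in each of the 5 Dorsal (green) and 5 Ventral (red) libraries, with group mean and SD in black and every axis starting at 0. Stx1a to Snap47 are the first 9 panels, with all ventral above all dorsal libraries, and Sv2c, Syt7 and Vamp8 show the opposite separation. Snap25 separates narrowly, and Vamp2 and Syt1 overlap.

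RIM proteins gave 1 call of 4, as ventral-enriched, where 9.85% of all tested genes were so called. Rims3, which encodes a short RIM with few of the domains of the large ones, was at 40.5, 29.6, 38.4, 47.9 and 43.5 CPM in the dorsal libraries and 90.6, 92.0, 49.5, 75.1 and 72.4 CPM in the ventral libraries. Ventral replicate 3 came close to Dorsal replicate 4 without overlap, and the log2 fold change was -0.93 ± 0.17 (edgeR adjusted p = 0.00161). Rims1, the main RIM scaffold, had the higher mean in the dorsal libraries. Rims1 was measured at 256, 227, 196, 209.8 and 199 CPM in Dorsal replicates 1 to 5 and at 187, 209, 144, 173 and 174 CPM in Ventral replicates 1 to 5. Its groups overlapped and the log2 fold change of 0.29 ± 0.11 missed the threshold (edgeR adjusted p = 0.0616). Rims2 differed by -0.21 ± 0.10 (edgeR adjusted p = 0.115) and Rims4 by -0.020 ± 0.18 (edgeR adjusted p = 0.943). The log2 ratio of Rims1 to Rims2 was 0.84 ± 0.11 against 0.34 ± 0.35 (exact permutation p = 0.0317, Benjamini-Hochberg adjusted p = 0.0635), and Ventral replicate 2 alone lay within the dorsal range: without it the difference was 0.63 instead of 0.50.

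The calcium-binding synaptotagmins differed in direction. Syt1, the fast calcium sensor of forebrain release, was the most abundant of them and did not pass the test. Syt1 was measured at 1060.5, 962, 945, 933 and 923 CPM in Dorsal replicates 1 to 5 and at 1207, 1054, 899, 1033 and 986 CPM in Ventral replicates 1 to 5. The interval of its log2 fold change was -0.29 to 0.088 (edgeR adjusted p = 0.392). Syt7 (chr19:10389090-10453180, plus strand), the high-affinity sensor tied to asynchronous release and facilitation, was the most abundant dorsal-enriched member. Syt7 was measured at 317, 432, 473, 439 and 494 CPM in Dorsal replicates 1 to 5 and at 252, 249, 178, 202 and 188 CPM in Ventral replicates 1 to 5. Dorsal replicate 1 was the lowest of its group and above all ventral libraries, and the log2 fold change was 1.01 ± 0.14 (431 ± 68.5 CPM against 214 ± 34.7 CPM, SD, n = 5 each, edgeR adjusted p = 0.000186). Syt7 shares 5.13% of its exonic length with another annotated gene.

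Syt6 (chr3:103575231-103645569, plus strand), a synaptotagmin also known from sperm acrosome release, showed the reverse. Syt6 was measured at 42.0, 24.8, 31.0, 29.7 and 30.0 CPM in Dorsal replicates 1 to 5 and at 62.0, 53.4, 59.5, 58.6 and 58.7 CPM in Ventral replicates 1 to 5. The ventral values were tight and all above the dorsal ones, with a log2 fold change of -0.91 ± 0.14 (edgeR adjusted p = 0.000391). Syt2, the fast sensor of parvalbumin interneurons and brainstem neurons, was scarce and uneven, at 2.73, 4.22, 12.8, 6.43 and 10.1 CPM in the dorsal libraries and 12.3, 7.84, 13.8, 13.4 and 15.4 CPM in the ventral libraries. Its log2 fold change of -0.80 ± 0.31 missed the threshold (edgeR adjusted p = 0.0634), and Dorsal replicates 3 and 5 lay within the ventral range. It was called ventral-enriched without Dorsal replicate 3, without Ventral replicate 2 and after GC and length correction. The interneuron marker Pvalb was higher in the ventral libraries (17.0 ± 1.66 against 26.2 ± 2.32 CPM, -0.63 ± 0.14, edgeR adjusted p = 0.00481), and its part in the levels of Syt2, Cplx1 and Vamp1 was not tested. Of the 10 interneuron markers, Pvalb among them, 6 passed the adjusted p on the ventral side and 0 on the dorsal side. The shares over all tested genes were 14.6% and 19.0%. Not all of the markers shared this result. Gad2 (-0.15), Slc32a1 (-0.062), Vip (-0.29) and Dlx1 (0.33) did not pass. The other synaptotagmins of this class, Syt3, Syt5, Syt9 and Syt10, had log2 fold changes from -0.60 (Syt9) to 0.25 (Syt10) and none passed the test.

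Synaptic vesicle proteins held calls in both directions. Sv2c (chr13:95954594-96132577, minus strand), the SV2 glycoprotein best known from the basal ganglia and as a receptor of botulinum toxin A, had the lowest adjusted p of all members. Sv2c was measured at 101, 74.1, 96.4, 99.8 and 94.1 CPM in Dorsal replicates 1 to 5 and at 29.2, 49.8, 29.3, 29.2 and 31.0 CPM in Ventral replicates 1 to 5. Ventral replicate 2 stood above the other ventral libraries and below all dorsal ones. The log2 fold change was 1.48 ± 0.16 (93.1 ± 11.0 CPM against 33.7 ± 9.06 CPM, SD, n = 5 each, edgeR adjusted p = 3.81e-05), and it was between 1.43 and 1.65 when any single library was left out. The more abundant glycoproteins Sv2a and Sv2b did not pass. Sv2a was at 119, 103, 96.8, 131 and 111 CPM in the dorsal libraries and 111, 128, 97.5, 122 and 123 CPM in the ventral libraries, with a log2 fold change of -0.055 ± 0.11 (edgeR adjusted p = 0.742). Sv2b had -0.20 ± 0.12 (edgeR adjusted p = 0.218), and the ratio of Sv2a to Sv2b overlapped (-0.38 ± 0.24 against -0.52 ± 0.22 on the log2 scale, exact permutation p = 0.389, Benjamini-Hochberg adjusted p = 0.389). The signs of Sv2a and Sv2b turned in the fit with the covariate, to 0.36 and 0.097.

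The synapsins, which hold vesicles in the reserve pool, did not share a direction. Syn2 was measured at 344, 265, 279.7, 275 and 279.8 CPM in Dorsal replicates 1 to 5 and at 451, 491, 448, 442 and 498 CPM in Ventral replicates 1 to 5. Syn2 (chr6:115134902-115282006, plus strand) was ventral-enriched with a log2 fold change of -0.69 ± 0.093 (edgeR adjusted p = 0.000196), and Dorsal replicate 1, the highest dorsal library, stayed below the ventral ones. Syn1 was at 336, 261, 315, 261 and 271 CPM in the dorsal libraries and 375, 342, 277, 398 and 361 CPM in the ventral libraries, with overlap and a log2 fold change of -0.28 ± 0.11 that missed the threshold (edgeR adjusted p = 0.0678). The log2 ratio of Syn1 to Syn2 was -0.034, -0.023, 0.17, -0.075 and -0.046 in the dorsal and -0.27, -0.52, -0.69, -0.15 and -0.46 in the ventral libraries. It was higher in every dorsal library (difference 0.42, exact permutation p = 0.00794, Benjamini-Hochberg adjusted p = 0.0212). Syn3, the scarce synapsin of immature neurons, was dorsal-enriched at 6.12, 10.1, 9.81, 9.55 and 9.66 CPM in the dorsal libraries and 6.33, 3.35, 3.72, 5.76 and 5.85 CPM in the ventral libraries (log2 fold change 0.82 ± 0.24, edgeR adjusted p = 0.0179). Dorsal replicate 1 of Syn3 lay below Ventral replicate 1, and 14.1% of the exonic length of Syn3 is shared with Timp3. Pairs assigned to several genes were not counted, and the strand setting that decides such cases is not given. With the replicate block added to GC and length correction Syn3 was not called (0.69, edgeR adjusted p = 0.0635), nor with the covariate. AP180 (Snap91) was higher in every ventral library, with a log2 fold change of -0.44 ± 0.11 below the fold limit (edgeR adjusted p = 0.00712).

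All 4 genes of SNARE disassembly had the higher mean in the ventral libraries. Of these 3 passed the adjusted p, where 14.6% of all tested genes passed on that side. Nsf (chr11:103821782-103954056, minus strand), the ATPase itself, was the only gene of the 4 past the fold limit. Nsf was measured at 659, 552, 637, 636 and 601 CPM in Dorsal replicates 1 to 5 and at 1052, 998, 801, 924 and 961 CPM in Ventral replicates 1 to 5. The groups did not overlap and the log2 fold change was -0.62 ± 0.091 (edgeR adjusted p = 0.000337). Nsf lay close to the fold limit and was not called without Dorsal replicate 2 or without Ventral replicate 1. The neuronal attachment protein Napb had the third highest mean CPM of the members. It was at 1535, 1136, 1131, 1267 and 1204 CPM in the dorsal libraries and 1641, 1926, 1794, 1561 and 1788 CPM in the ventral libraries. Its groups again did not overlap (log2 fold change -0.47 ± 0.10, edgeR adjusted p = 0.00291). Napg had -0.51 ± 0.17 (edgeR adjusted p = 0.0316) with Ventral replicate 1 far above the rest, and the ubiquitous Napa had -0.29 ± 0.11 (edgeR adjusted p = 0.0597).

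Among synaptotagmins outside the core calcium sensors, 8 were tested and 1 was called in each direction. Syt17 (chr7:118380717-118448222, minus strand), a synaptotagmin-like protein of Golgi and endosomal traffic, was ventral-enriched. Syt17 was measured at 28.7, 37.6, 57.9, 46.6 and 56.5 CPM in Dorsal replicates 1 to 5 and at 70.0, 104, 146, 98.2 and 116 CPM in Ventral replicates 1 to 5. The lowest ventral library was above the highest dorsal one, with a log2 fold change of -1.22 ± 0.21 (edgeR adjusted p = 0.000869). Syt12, a phosphorylated vesicle synaptotagmin without calcium binding, was dorsal-enriched at 9.50, 9.42, 3.75, 7.51 and 5.26 CPM in the dorsal libraries and 3.44, 2.73, 1.69, 3.23 and 3.02 CPM in the ventral libraries. The difference was 1.27 ± 0.32 on the log2 scale (edgeR adjusted p = 0.00855), with 17.2% of its exonic length shared with another annotated gene. Syt14 (0.57 ± 0.19, edgeR adjusted p = 0.0332) and Syt13 (-0.35 ± 0.12, edgeR adjusted p = 0.0426) passed the adjusted p below the fold limit, in opposite directions. The abundant Syt11 and Syt4, which do not trigger fusion by calcium, had 0.069 ± 0.10 and -0.044 ± 0.15 and did not pass, nor did Syt15 (-0.46 ± 0.88) and Syt16 (-0.15 ± 0.17).

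In the general trafficking class Vamp8, Vamp3 and Stxbp2 were dorsal-enriched. Vamp8 (endobrevin), a SNARE of endosomes and of secretion outside neurons, was the clearest. Vamp8 was measured at 10.1, 8.32, 6.20, 8.05 and 6.91 CPM in Dorsal replicates 1 to 5 and at 1.55, 1.67, 1.60, 2.47 and 2.88 CPM in Ventral replicates 1 to 5. All dorsal libraries were above the ventral ones, with a log2 fold change of 1.89 ± 0.28, the highest of all tested members (edgeR adjusted p = 0.000361). Vamp3 (cellubrevin), the recycling endosome SNARE that glia also use, was at 40.6, 68.1, 58.0, 44.6 and 51.7 CPM in the dorsal libraries and 17.9, 35.9, 43.1, 26.1 and 31.8 CPM in the ventral libraries. Dorsal replicate 1 lay below Ventral replicate 3, and the log2 fold change was 0.80 ± 0.21 (edgeR adjusted p = 0.0107). Vamp3 was not called after GC and length correction or with the covariate.

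Stxbp2 (Munc18-2), the Munc18 of blood and epithelial cells, ranged from 1.13 to 21.0 CPM within the dorsal group alone. Stxbp2 was measured at 1.13, 7.99, 21.0, 9.25 and 15.4 CPM in Dorsal replicates 1 to 5 and at 2.27, 2.11, 6.16, 3.29 and 4.77 CPM in Ventral replicates 1 to 5. Its Dorsal replicate 1 was below every ventral library, and the log2 fold change of 1.59 ± 0.49 (edgeR adjusted p = 0.0226) was not called without Dorsal replicate 3, without Dorsal replicate 5 or without Ventral replicate 1, with adjusted p values up to 0.0649. With the covariate its sign turned to -0.44. The summed oligodendrocyte markers given above were also higher in the dorsal libraries, and their part in the dorsal calls of this class was not tested. The microglial marker list was at 21.9 to 23.8 CPM in the dorsal and 12.9 to 33.7 CPM in the ventral libraries, and the endothelial list at 4.61 to 29.1 and 7.22 to 41.8 CPM. Summed astrocyte markers overlapped (278 to 362 CPM dorsal, 241 to 393 CPM ventral), with Gfap, Aqp4 and Slc1a3 of 6 called dorsal-enriched and Aldh1l1 ventral-enriched, and their part was not tested either.

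Snap47, a SNAP protein of intracellular membranes, was ventral-enriched. Snap47 was measured at 96.5, 81.6, 75.6, 91.2 and 81.3 CPM in Dorsal replicates 1 to 5 and at 144, 134, 134, 152 and 170.0 CPM in Ventral replicates 1 to 5. The groups did not overlap and the log2 fold change was -0.79 ± 0.11 (edgeR adjusted p = 0.000228), with 11.6% of its exonic length shared with Jmjd4. Stx8, a late endosomal syntaxin, was at 26.6, 18.1, 22.8, 25.3 and 26.9 CPM in the dorsal libraries and 46.7, 31.3, 33.4, 43.5 and 43.3 CPM in the ventral libraries, without overlap and with a log2 fold change of -0.76 ± 0.16 (edgeR adjusted p = 0.00328). The endosomal syntaxins Stx7 (-0.39 ± 0.13, edgeR adjusted p = 0.0264) and Stx12 (-0.42 ± 0.14, edgeR adjusted p = 0.0299), the most abundant syntaxins of the class, were also higher in the ventral libraries, below the fold limit. Stx16 of the trans-Golgi (0.54 ± 0.14, edgeR adjusted p = 0.0114) and Stx3 (0.60 ± 0.21, edgeR adjusted p = 0.038), a syntaxin of apical and dendritic membranes, were higher in the dorsal libraries. With 1 CPM added the group means of Stx3 lay 0.56 apart, so it was not called. It was called dorsal-enriched under other scalings, with protein-coding genes alone and with the limit on the edgeR log2 fold change. Snap23, the ubiquitous relative of Snap25, had 0.38 ± 0.26 with overlap (edgeR adjusted p = 0.283). The remaining 11 tested members of the class, Stxbp3, Stxbp4, Snap29, Vamp4, Vamp7, Stx2, Stx4a, Stx5a, Stx6, Stx17 and Stx18, had log2 fold changes between -0.32 (Vamp7) and 0.47 (Stx4a) and did not pass the test. Without Dorsal replicate 1 or without Ventral replicate 3, 5 rather than 3 trafficking members were dorsal-enriched.

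Of 7 paralog pairs described here, the ratio differed without overlap and at an adjusted p of 0.0212 for Cplx1 to Cplx2 and Syn1 to Syn2. It missed the threshold for Rims1 to Rims2, Snap25 to Snap23 (difference -0.86, exact permutation p = 0.0476, Benjamini-Hochberg adjusted p = 0.0762), Syt2 to Syt1 (difference -0.80, exact permutation p = 0.111, Benjamini-Hochberg adjusted p = 0.148), Vamp1 to Vamp2 and Sv2a to Sv2b. Both shifts went the same way after correction for GC content and length, at -0.71 and 0.57. Of the synapsins Syn2 was called ventral-enriched and Syn1 did not pass, while both complexins passed the adjusted p in opposite directions.

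**Figure D4:**
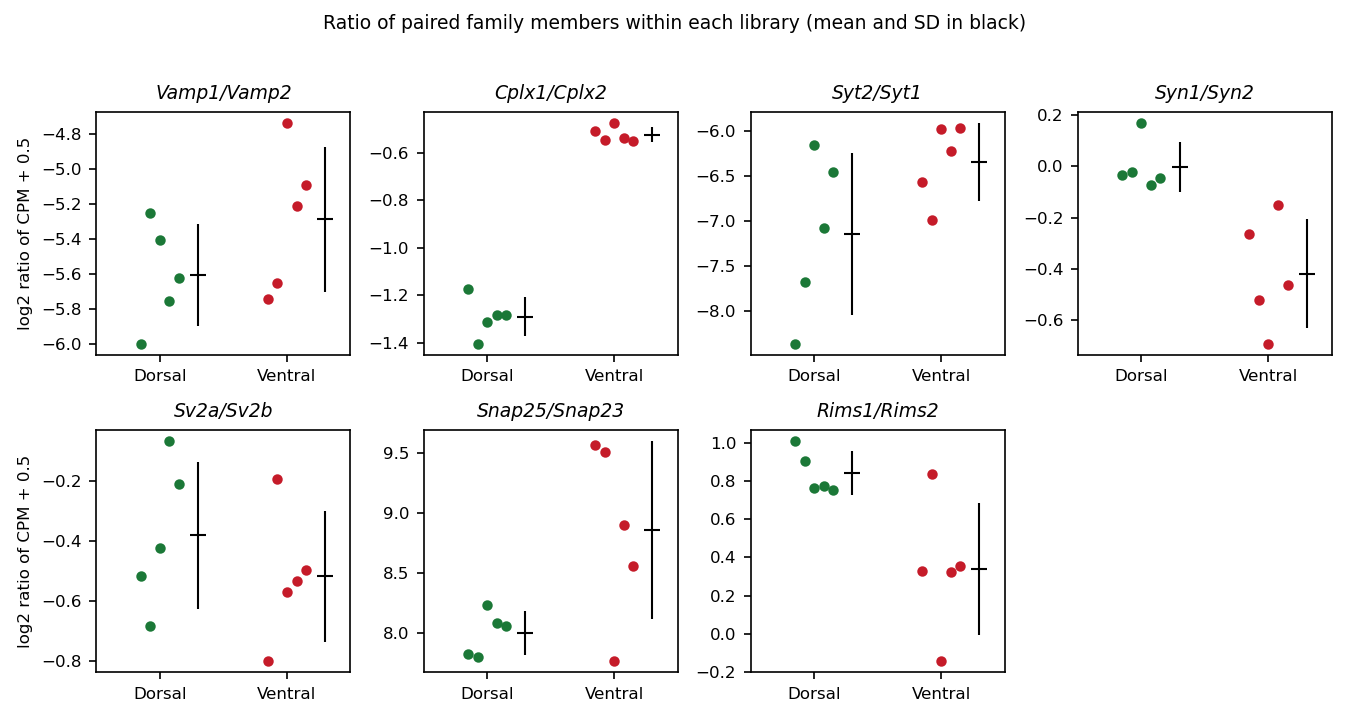
Log2 ratio of paired family members (CPM plus 0.5) within each of the 5 Dorsal (green) and 5 Ventral (red) libraries, with mean and SD in black. The groups do not overlap for Cplx1/Cplx2 and Syn1/Syn2 and overlap for the other 5 pairs. Axes do not start at 0 and differ between panels.

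Other genes of the release cycle were read from 4 lists, drawn up from known roles. Of 43 genes 42 were tested (Doc2a was not), 2 were dorsal-enriched and 7 ventral-enriched, and 8 and 15 passed the adjusted p, where 15.7% and 9.85% of all tested genes were called and 19.0% and 14.6% passed. Of 9 active zone scaffold genes, 6 were higher in the dorsal libraries by adjusted p (Bsn, Pclo, Erc1, Rimbp2, Ppfia2 and Cask) and none in the ventral ones, with a list median of 0.32. The giant scaffold Pclo (piccolo) was at 299.8 ± 13.4 against 198 ± 22.4 CPM (log2 fold change 0.59 ± 0.10, edgeR adjusted p = 0.000635) and its relative Bsn (bassoon) at 245 ± 15.3 against 169.8 ± 11.6 CPM (log2 fold change 0.53 ± 0.090, edgeR adjusted p = 0.000897). Of 10 genes of vesicle retrieval 7 were higher in the ventral libraries and none in the dorsal ones, with Dnm1, the dynamin of synaptic endocytosis, at 310.0 ± 26.7 against 523 ± 82.1 CPM (log2 fold change -0.75 ± 0.12, edgeR adjusted p = 0.00047). Among 14 tested priming and calcium-dependent regulators 2 were higher in the dorsal and 8 in the ventral libraries. With the fold limit added, the only active zone gene called was Pclo, as dorsal-enriched, and 3 retrieval genes were called ventral-enriched. Of the priming and calcium-dependent regulators 1 was called dorsal-enriched and 4 ventral-enriched. The vesicle GTPase Rab3a, which binds RIM, was at 441 ± 57.2 against 794 ± 117 CPM (log2 fold change -0.85 ± 0.12, edgeR adjusted p = 0.000228) and the calcium sensor Doc2b at 51.3 ± 4.28 against 31.1 ± 3.56 CPM (log2 fold change 0.71 ± 0.12, edgeR adjusted p = 0.00107). None of 9 vesicle membrane genes, among them synaptophysin (Syp, 0.065 ± 0.12, edgeR adjusted p = 0.708), passed the test, and their summed level overlapped between the groups (1502 to 1741 CPM dorsal, 1537 to 1801 CPM ventral).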

How the data were processed

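RNA bound to EGFP-L10a ribosomes was sequenced from 5 Dorsal and 5 Ventral libraries, grouped by the sample labels. The authors deposited unnormalized counts for each Ensembl gene, 1 file per library, made from 50 bp read pairs of amplified cDNA. The submitters' processing notes name STAR 2.5.2b, HTSeq 0.7.2, edgeR and the build GRCm38. The annotation release and strand setting are not given in the sources used here, so overlapping genes are uncertain. The reads carry no molecular identifiers and were amplified, so they are not independent molecules, and the limit of 3 counts covers counting error only.

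Gene names, types, positions, exon lengths and base composition were taken from GENCODE M21, which matched 54809 of 54838 gene rows. Rows for pairs assigned to no gene or to several stayed out of library sizes and tests. They were 11.6% to 33.9% (no gene) and 5.92% to 8.66% (ambiguous) of the pairs. In R 4.3.3, a gene was tested where 2 or more libraries exceeded 1 CPM, libraries were scaled by TMM, and edgeR 4.0.16 (quasi-likelihood, small-count dispersions) compared Dorsal with Ventral and p values were adjusted by Benjamini-Hochberg over the 16806 genes tested. Adjusted p values without another name come from this test. Calls required an adjusted p under 0.05 and group means of CPM, with 1 added, more than 0.58 apart on the log2 scale. Values are means ± SD over 5 libraries, and log2 fold changes (dorsal over ventral) are given ± SE. Paralog ratios were log2 ratios of CPM plus 0.5, tested by two-sided exact permutation of the group means. Chi-square per degree of freedom between libraries of a group was 4.70 to 49.5, above sampling noise, so none was a copy or mere resequencing of another. The lowest values were 4.70 for Dorsal replicates 4 and 5 and 8.83 for Dorsal replicates 3 and 5. Separate amplifications of 1 pool would also exceed sampling noise, so the measure cannot tell whether libraries came from different pools. P values measure the spread between these pooled libraries. The script was tested on simulated data.

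Members, classes, pairs and lists were chosen with earlier results of these data known. Ratios were adjusted over 8 paralog pairs. Named were all called members, core release genes, the genes of the paralog pairs, members that passed the adjusted p, and further members by role to give their values. Some genes that this rule names, and a ratio that needs one of them, are not reported here, though counts and adjustments include them. Alternatives were other scaling, filters and fold limits, DESeq2 1.42.0, a replicate block and a per-library trend on GC content and exon length removed. Others were the share of pairs assigned to no gene as a covariate, protein-coding genes alone and each library left out.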

Additional observations from a re-analysis of the deposited data

Results flagged for a closer look

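Of 76 combinations of group and named member or paralog ratio, 8 had a library that stood apart from the other 4 of its group by Dixon's test, a gap that chance gives in about 1 of 20 groups. Ventral replicate 3 was low for Stx1a, at 31.2 CPM where the other ventral libraries had 46.8 to 50.6. Sv2c was low in Dorsal replicate 2, at 74.1 CPM beside 94.1 to 101 CPM, and high in Ventral replicate 2, at 49.8 CPM beside 29.2 to 31.0 CPM, and the groups still did not overlap. Dorsal replicate 1 was high for Syn2 (344 CPM, others 265 to 279.8) and for Syt1 (1061 CPM, others 923 to 962), and low for Syn3 (6.12 CPM, others 9.55 to 10.1). Vamp1 was high in Dorsal replicate 2, at 73.2 CPM beside 54.8 to 58.9 CPM. The log2 ratio of Syn1 to Syn2 was 0.17 in Dorsal replicate 3 and -0.075 to -0.023 in the other dorsal libraries. Dorsal replicate 1 had the lowest depth, 11138676 counts, and the part of depth in its values was not tested.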

How the results depend on the processing

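Counts of enriched members (7 dorsal, 10 ventral) stayed within 1.5 times under other scalings, filters, DESeq2 and protein-coding genes alone, and with the older edgeR dispersions, an alternative chosen after seeing the data. DESeq2 called the same 7 and 10 members. Without a fold limit 11 and 20 members passed (presynaptic ventral 11, general trafficking 5 dorsal and 4 ventral, release cycle lists 8 and 15). Correction for GC content and length gave 18 ventral members, 10 presynaptic and 4 general trafficking, and 11 genes of the release cycle lists, the same counts as with the replicate block added, under which Syn3 also lost its dorsal call and 5 dorsal members were left. Members gained included Napb, Napg, Snap25, Snap91, Stx12, Stx7 and Syt2. It lost Vamp3, and turned Vamp2 to 0.044. The covariate for pairs assigned to no gene left 3 dorsal and 1 ventral members. Calls were 1 and 0 for presynaptic, 1 and 0 for general trafficking and 1 and 1 for release cycle list genes. At an unadjusted p below 0.05 there were 20 members. The covariate turned Snap25 to 0.012, Stxbp2 to -0.44, Sv2a to 0.36, Sv2b to 0.097, Syt1 to 0.11 and Vamp2 to 0.46. None of these passed the threshold, and the cause was not tested. Leaving out each library in turn gave 6 to 10 dorsal and 9 to 12 ventral members, 2 to 5 dorsal general trafficking members, 1 to 2 dorsal and 4 to 7 ventral genes of the release cycle lists, and differences of 0.38 to 0.63 for Rims1 to Rims2 and -1.14 to -0.69 for Snap25 to Snap23. The list counts fell to 1 dorsal without Dorsal replicate 1, Ventral replicate 2 or Ventral replicate 3, and to 4 ventral without Ventral replicate 2. Both ratios passed the threshold, without Ventral replicate 2 and without Ventral replicate 3 in that order. Sv2a ranged from -0.12 to 0.0018, the latter without Dorsal replicate 3. Paralog ratios kept direction and side with 1 CPM added, on raw counts and, added after seeing the data, after GC and length correction.

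Replicate numbers are shared by the groups, but same-numbered libraries did not deviate together (correlations -0.032 to 0.069), and the sources do not say that equal numbers mark the same mice. With the replicate number as a block, 7 dorsal and 11 ventral members were called, with Syt2 gained. The 7 members that failed the filter had at most 23 counts in any library, which limits the precision of their values.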
